A study of Mus musculus with 6 samples.

Results

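Tcf21 and Wt1, transcription factors of the epicardium, were followed across cultured fibroblasts of the adult mouse heart and tail. The array carried 1 probe for each gene, found by RefSeq accession, so 2 of its 55681 probes and 2 of 20665 named genes are described here. The Tcf21 probe is A_51_P459944 (NM_011545, a gene on chromosome 10) and the Wt1 probe is A_55_P1953143 (NM_144783, on chromosome 2). The files gave no position for either probe, so which exon or UTR it reads is not known here.

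Primary cells came from male C57/Bl6-J mice, wild type as far as the labels go and given no agent. The labels give an age of 8 weeks, and the protocol gives 8 to 10 weeks. Chopped hearts and skinned, cut tails were digested for 40 minutes, with trypsin/EDTA or collagenase type II, and the released cells grew on plastic for 5 days. By the design text each tissue had 3 biological replicates, and cells of 2 animals were pooled for each. No sorting step is given, so a culture can hold any cell that attached and survived. All 12 general fibroblast markers checked, among them Col1a1, Pdgfra and Vim, were well above background on all 6 arrays.

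The epicardium is the mesothelial sheet around the heart. In the embryo some of its cells leave the sheet, enter the muscle wall and become fibroblasts and mural cells of vessels. Tcf21 is a basic helix-loop-helix (bHLH) factor that pairs with E proteins and is needed for those cells to become cardiac fibroblasts, and it stays on in resident fibroblasts of the adult heart. Wt1 is a zinc finger factor of the epicardium, other mesothelia, kidney and gonad. It is known for holding epicardial cells between epithelial and mesenchymal states, and falls in most cells that have left the sheet.

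The sequence just before the Tcf21 start is shown as the regulatory stretch next to the gene that was bright on 3 arrays and at background on tail 2 and tail 3. It holds the 250 bases upstream of the start, from RefSeq on GRCm38.p6, chr10:22820144-22820393, minus strand, printed 5′ to 3′ with the match to a GATA motif in capitals.
Tcf21: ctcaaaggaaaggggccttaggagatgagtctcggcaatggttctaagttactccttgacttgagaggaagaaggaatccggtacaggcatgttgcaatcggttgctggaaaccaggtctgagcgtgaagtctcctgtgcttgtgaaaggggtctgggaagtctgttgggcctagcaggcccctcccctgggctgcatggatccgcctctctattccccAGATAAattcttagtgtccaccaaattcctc
Matches were sought on both strands to 4 motifs. The GATA motif AGATAA matched once, 26 to 31 bases before the start, and 9.99% of the 32851 RefSeq promoter windows of this length hold it. The E-box CANNTG, bound by bHLH dimers, had 0 matches here and is held by 66.2% of windows. The letters GCGTGGG, bound by Wt1 and Egr factors, and AGGTGTGA, bound by T-box factors, also had 0 matches and are held by 4.30% and 1.12% of windows. A match is letters only, and their absence from this window says nothing about the factor.

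A pair of arrays has to be described before any comparison. The array labelled heart 2 had 99.3% of its spots well above background and a median processed signal of 949, against 47.3% to 55.2% and 24.3 to 37.8 on the other 5. Its negative control spots were nevertheless low, at a median of 7.48, where the other 5 lay between 4.26 and 8.12. Over 53059 probes its log2 signals correlated with the others at 0.742 to 0.764, and all other pairs at 0.958 to 0.989. The array labelled tail 1 was closest to the arrays labelled heart 1 and heart 3 (0.989 and 0.980), ahead of tail 2 and tail 3 (0.970 and 0.958). No label was changed. Both genes are given for all 6 arrays by label and again without heart 2 and tail 1. Gene lists are described without those arrays, with their median by label beside it.

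Tcf21 was bright on 3 arrays and near background on another pair. Its processed signal was 25113 on heart 1, 445 on heart 2 and 17655 on heart 3. On the arrays labelled tail it was 26572 on tail 1, 8.84 on tail 2 and 9.16 on tail 3. Tail 1 thus lay with heart 1 and heart 3, heart 2 lay far below them, and the labelled groups overlapped.

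Against the local background of the same spot, the median Tcf21 signal was 588 times as high on heart 1, 399 times on heart 3 and 563 times on tail 1. It was 10.8 times as high on heart 2, 1.72 times on tail 2 and 1.42 times on tail 3. On heart 2 the signal exceeded all 308 negative control spots, as it did on heart 1, heart 3 and tail 1. On tail 3, 18.2% of the negative controls read at or above the Tcf21 spot, and on tail 2 it was 0.649%. Neither of those spots was well above background by the scanner software's own test, and none of the Tcf21 spots was saturated.

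**Figure D1:**
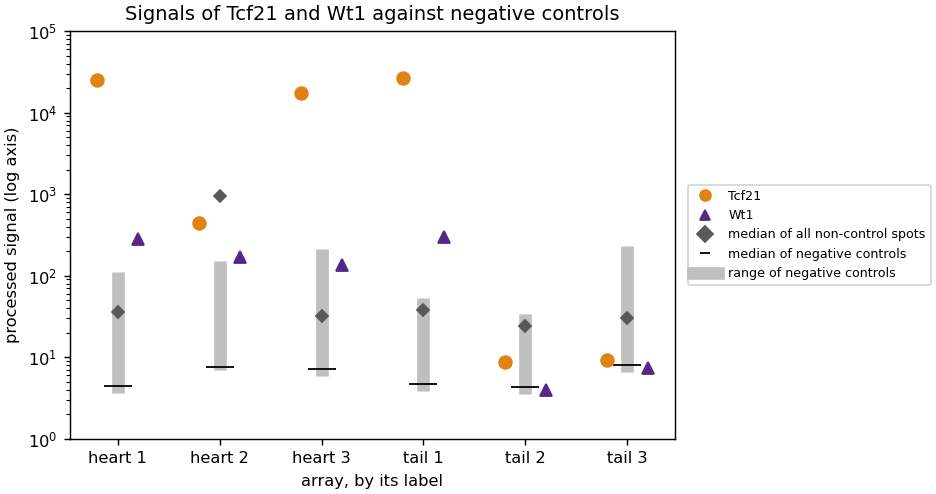
Processed signal on a log axis of Tcf21 (circles) and Wt1 (triangles) on each array, with the range (grey bar) and median (dash) of 308 negative control spots and the median of all non-control spots (diamond). Tcf21 stands at 17655 or more on heart 1, heart 3 and tail 1, and inside the negative control range on tail 2 and tail 3, while the array labelled heart 2 has its median spot raised to 949.

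Scaled to each array, the order of Tcf21 levels was the same apart from tail 2 and tail 3, both at background. Values are log2 of the processed signal minus the array's 75th percentile, so 0 is a signal at that percentile. They were 5.44 on tail 1, 5.37 on heart 1, 5.28 on heart 3, -2.38 on heart 2, -5.45 on tail 2 and -5.64 on tail 3. The steps between the top 3 arrays were 0.07 and 0.09, close to the 0.08 that a difference between repeated spots of a probe varies by (SD). The step down to heart 2 was 7.66, and the next step to tail 2 was 3.06.

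Wt1 was high and low on the same arrays as Tcf21. Its processed signal was 283 on heart 1, 172 on heart 2, 134 on heart 3 and 302 on tail 1, and it was well above background on these 4. On tail 2 and tail 3 it was 3.97 and 7.32, not well above background, with 71.8% and 80.2% of the negative controls at or above it. On heart 3 that share was 0.974%, and on heart 1, heart 2 and tail 1 all negative controls read lower. The Wt1 spots of tail 2 and tail 3 thus lay within the range of the negative controls.

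On the scaled log2 axis Wt1 stood at -1.02 on tail 1, -1.10 on heart 1, -1.76 on heart 3, -3.76 on heart 2, -5.97 on tail 3 and -6.60 on tail 2. The step between tail 1 and heart 1 was 0.08, no wider than the SD of 0.08 between repeated spots. Heart 3 lay 0.66 below heart 1, beyond that spread. The order of tail 3 and tail 2 has no meaning, since both spots are at background. For both genes heart 2 lay above tail 2 and tail 3, so the labelled groups overlapped through the array labelled tail 1 alone. Signal above background on heart 2 sets neither gene apart, since 99.3% of that array's spots had it. Both genes lay below its median spot of 949.

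**Figure D2:**
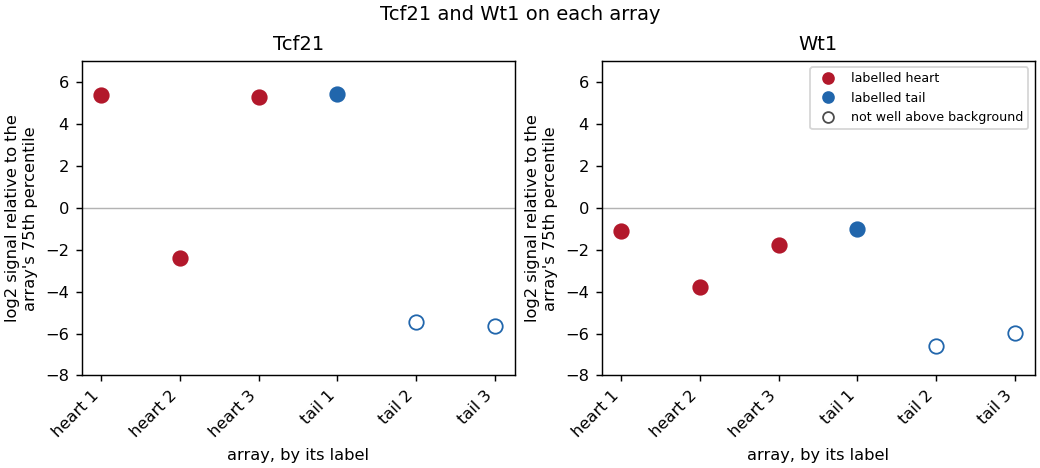
Log2 processed signal of Tcf21 (left) and Wt1 (right) relative to the 75th percentile of each array, 1 point per array, coloured by label, with open points not well above background. Both genes are high on heart 1, heart 3 and tail 1, lower on heart 2 and lowest on tail 2 and tail 3.

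Split by label, neither gene passed. Tcf21 averaged 2.76 ± 4.45 in heart and -1.88 ± 6.34 in tail (SD, n = 3 each), a log2 difference of 4.64 (SE 3.19, limma adjusted p = 0.714). Wt1 averaged -2.21 ± 1.38 and -4.53 ± 3.05 (SD, n = 3 each), a log2 difference of 2.32 (SE 1.42, limma adjusted p = 0.714). Limma called 0 of the 20196 features tested (0%), and 445 had an unadjusted p under 0.05. Without the array labelled heart 2 the differences were 7.21 for Tcf21 and 3.10 for Wt1 (adjusted p = 0.697 for both). Without the array labelled tail 1 they were 8.30 (adjusted p = 0.323) and 4.08 (0.184).

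Without both of those arrays the groups separated widely. Heart 1 and heart 3, here called the heart pair, were then set against tail 2 and tail 3, the tail pair. Tcf21 averaged 5.33 ± 0.07 on the heart pair and -5.54 ± 0.14 on the tail pair (SD, n = 2 each). The log2 difference was 10.87 (SE 0.16, limma adjusted p = 0.000548), with 20566 features tested. Since the tail spots were at background, the fold is a bound: at least 689-fold higher in heart, against the lowest signal that counted as well above background on the tail arrays. Wt1 averaged -1.43 ± 0.46 and -6.28 ± 0.45 (SD, n = 2 each), a log2 difference of 4.85 (SE 0.33, limma adjusted p = 0.00251) and at least 6.38-fold. Within each row of the slide, which held 1 array of each pair, the difference was 10.82 and 10.92 for Tcf21 and 5.50 and 4.21 for Wt1.

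Limma called 2956 features on these 4 arrays (14.4%), 7.75% higher in heart, both Tcf21 and Wt1 among them, and 6.63% lower. The arrays were set aside with these results in view, tail 1 because its own signals ran against its label, so these p-values are too small by an unknown amount. With normexp background correction, which adds an offset of 50 to each signal, the log2 difference of Wt1 was 1.84 (adjusted p = 0.00389) and that of Tcf21 7.85 (5.61e-05). RNA was taken from whole cultures, so fewer cells expressing a gene and less RNA of it per cell cannot be told apart.

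The authors' deposited table, which lists 433 probes with their heart over tail fold, holds both genes on the heart side. It gives Tcf21 a log2 fold of 10.34 (1292-fold), the highest of the 261 probes higher in heart. For Wt1 the authors' deposited table gives 4.98 (31.6-fold), the 48th highest. The sources used here do not say which arrays entered that table.

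Genes whose pattern over the 6 arrays was most like each factor were sought among 13120 named features. The measure was the root mean square difference in log2, after each gene's own mean was taken out. All 6 arrays entered, heart 2 and tail 1 included.

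Among the 6 nearest to Tcf21 were 2 cardiac regulators and 2 chloride channel accessory genes. Tbx20, a T-box factor of heart muscle and cushions, differed by 0.40, and Gata4, a zinc finger factor needed in the proepicardium and heart muscle, by 0.86. Tbx20 stood at 4.38, -3.29 and 4.11 on heart 1 to 3 and at 4.12, -6.39 and -5.69 on tail 1 to 3. Like Tcf21 it was high on tail 1 and low on heart 2, which follows from the choice by likeness over all 6 arrays. Tbx20, Gata4, Clca3a2, Art4 and Dclk3 were, as Tcf21 was, not well above background on tail 2 or tail 3. Gata4 read 3.23, -4.62 and 3.20 on heart 1 to 3 and 3.24, -6.30 and -5.63 on tail 1 to 3. Clca3a2 and Clca3a1, the chloride channel accessory genes, differed by 0.64 and 1.21, Art4, an ADP-ribosyltransferase gene of red cell membranes, by 1.22 and the kinase gene Dclk3 by 1.23.

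For Wt1 the nearest were Ctnna2 (0.24), an alpha catenin of cell junctions, Trpm6 (0.30), a magnesium channel, D630010B17Rik (0.31), Htra4 (0.31), a secreted protease, Plekha6 (0.32) and Msc (0.34). Msc encodes musculin, the bHLH factor closest to Tcf21 in sequence. It read -1.39, -3.34 and -1.53 on heart 1 to 3 and -1.62, -6.49 and -5.82 on tail 1 to 3. Its spots on tail 2 and tail 3 were not well above background, and neither were those of Ctnna2, Htra4 and Plekha6. Tcf21 and Wt1 themselves differed by a root mean square of 2.88. The measure is not scaled to a gene's range, which was wider for Tcf21, though both were high and low on the same arrays.

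**Figure D3:**
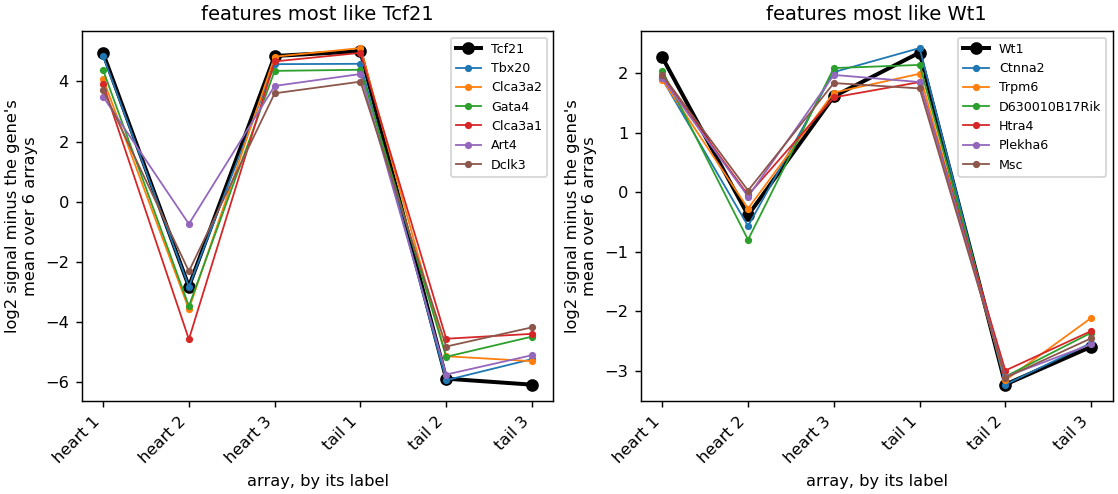
Log2 signal of each gene minus its own mean over the 6 arrays, for Tcf21 (left, black) and Wt1 (right, black) with the 6 named features nearest to each. Lines only join the points of 1 gene; all curves are high on heart 1, heart 3 and tail 1 and lowest on tail 2 and tail 3, apart from Clca3a1 on heart 2, which lies at its tail level.

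Transcription factors of the epicardium and its progenitors were next compared on the 4 arrays. Of 20 such genes 18 were tested, 10 were higher in heart, 1 was lower and 7 did not pass. Without Tcf21 and Wt1 it was 8 higher and 1 lower of 16, where 7.75% and 6.63% of all features were called in those directions. The median log2 difference of the 16 was 1.08, against -0.07 over all features. By label on all 6 arrays 0 of the 18 passed, where 0% of all features did, and the median of the 18 was 0.08 against -0.40 over all features. No member of the other lists passed by label either. With signal required on all 4 arrays the counts were 4 higher and 1 lower, since genes at background on the tail pair then go untested. Over all features it was then 1152 higher and 1006 lower of 18555. Tcf21, Wt1, Tbx20, Gata4, Hand2 and Tbx5 had entered the test through the heart pair alone.

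Tbx20 was at least 326-fold higher in heart (log2 difference 10.29, SE 0.29, limma adjusted p = 0.00062) and Gata4 at least 160-fold (9.18, SE 0.26, adjusted p = 0.000624). Hand2, a bHLH factor needed for the epicardium to form, was at least 59.2-fold higher. It read 1.87 and 1.70 on the heart pair against -4.93 and -5.31 on the tail pair. Gata6, a relative of Gata4, was well above background in both tissues and 25.2-fold higher in heart (4.66, SE 0.19). Scx, a bHLH factor of tendon and of some proepicardial cells, went the other way (log2 difference -2.30, SE 0.17, adjusted p = 0.00298). Tbx18, among the best known markers of the embryonic epicardium, did not pass (1.00, SE 0.38, adjusted p = 0.174). It stood at 1.89 and 0.85 on the heart pair and at 0.30 and 0.44 on the tail pair, and passed without the array labelled heart 3 (1.52, adjusted p = 0.0299). Scx and Tbx18 were singled out after their values were seen.

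Markers of the epicardial and mesothelial sheet were split. Of 28 genes 27 were on the array and 19 were tested, with 9 higher in heart, 4 lower and 6 not passing. Over all features 7.75% were called higher in heart and 6.63% lower. The median log2 difference was 2.06, or 1.48 with genes at background in 1 tissue set at their bound, against 0.53 by label. Over all features the median was -0.07 on the 4 arrays and -0.40 by label. Aldh1a2, which makes retinoic acid and is a reported Wt1 target, read 6.98 and 7.45 on the heart pair and -0.61 and -1.15 on the tail pair, a 274-fold difference (log2 difference 8.10, SE 0.28, adjusted p = 0.000841). Its relative Aldh1a1 was 33.9-fold higher. The complement gene C3 was 38.3-fold higher.

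Keratin 19 and the protease inhibitor Slpi, both known from epithelia and mesothelium, ran towards tail. Krt19 read -3.12 and -4.36 on the heart pair, where only heart 1 was well above background, and 1.47 and 1.54 on the tail pair, and Slpi was 40.8-fold higher in tail. The surface markers that define mesothelium were near or below background on the tail pair. Msln was at least 2.03-fold higher in heart (2.50, SE 0.33, adjusted p = 0.0135), at -2.72 and -3.44 on the heart pair, but its difference was 0.51 with normexp (adjusted p = 0.0961). Upk3b did not pass (2.05, SE 0.75, adjusted p = 0.163) and did without tail 2 (3.13, adjusted p = 0.0136). Msln and Upk3b were singled out after their values were seen. Upk1b, Lrrn4 and Krt8 were not well above background on both arrays of either tissue and were not tested.

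**Figure D4:**
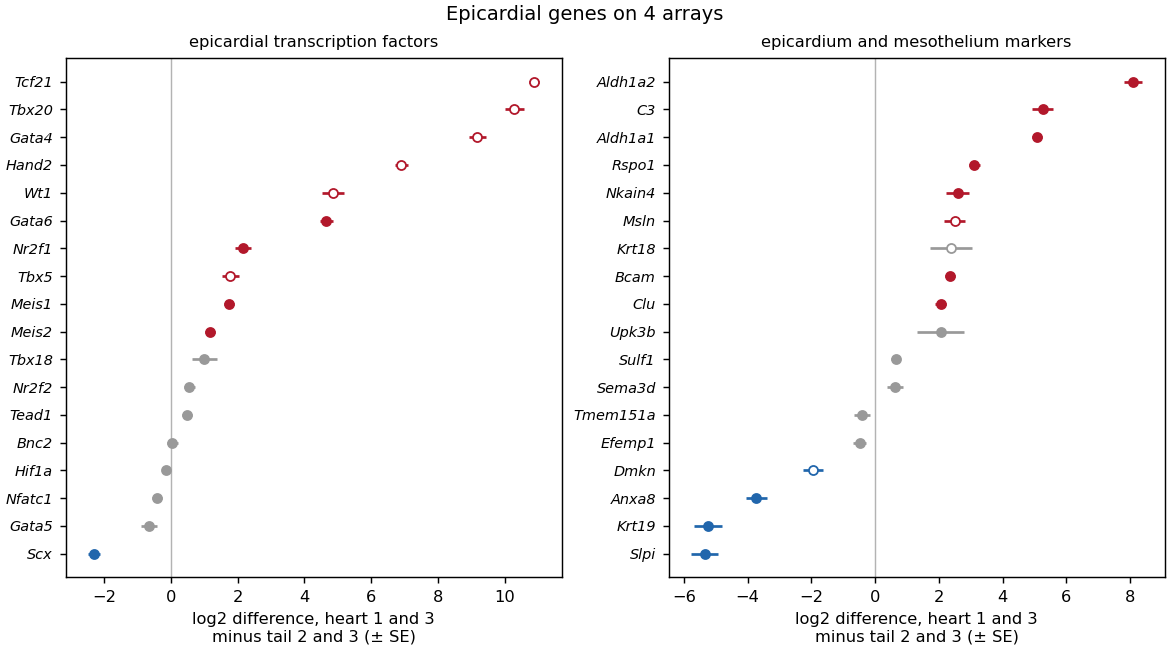
Log2 difference between the heart pair and the tail pair (± SE, n = 2 each) for tested epicardial transcription factors (left) and markers of epicardium and mesothelium (right); red passed as higher in heart, blue as lower, grey did not pass, and open points are at background in 1 tissue; 1 tested marker is not drawn. Tcf21 at 10.87 and Tbx20 at 10.29 lie farthest towards heart on the left, and Aldh1a2 at 8.10 on the right, where Slpi and Krt19 lie farthest towards tail.

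The dimerisation partners and relatives of Tcf21 held calls in both directions. Of 14 such genes 12 were tested, with 5 higher in heart and 4 lower, where 7.75% and 6.63% of all features were called in those directions. The median log2 difference was 0.05, and -0.26 by label. Musculin and Tcf15, both called higher, had entered the test through the heart pair alone, and Tcf23, called lower, through the tail pair alone. With signal required on all 4 arrays 3 were higher and 3 lower, where 1152 and 1006 of 18555 features were. Among the E proteins, which pair with tissue bHLH factors, Tcf4 was higher in heart (1.38, SE 0.15, adjusted p = 0.0074). Tcf3 and Tcf12 did not pass (-0.40 and -0.04). The probes of Tcf4 were not equal, with a difference of 0.92 over their mean (adjusted p = 0.161). The Id proteins, which hold E proteins in inactive pairs, went apart, Id2 and Id3 higher in heart (1.60 and 1.28), Id4 lower (-1.73) and Id1 not passing (0.13).

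Musculin was at least 6.23-fold higher in heart (4.69, SE 0.27, adjusted p = 0.00158). Twist1, a bHLH factor of mesenchyme, was lower in heart, with 1.33 and 0.72 on the heart pair against 3.11 and 3.07 on the tail pair (-2.06, SE 0.25, adjusted p = 0.0102). Tcf23, a relative well above background on 1 array of the heart pair, was also lower (-1.66), and lost its call without heart 1, heart 3 or tail 3 (adjusted p = 0.0662, 0.0868 and 0.0898). Fewer genes of this list were called without tail 2 or tail 3, where 1 array stands for tail. Calls over all features fell at those settings too. Tcf4, Id3 and Id4 lost their calls without either tail array (adjusted p = 0.0705, 0.0889 and 0.0641 without tail 2) and Id2 without tail 2 (0.0631).

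Smooth muscle genes, a programme that Tcf21 is known to hold down, held more calls towards tail. Of 12 genes 11 were tested, 6 were lower in heart and 1 was higher, where 6.63% and 7.75% of all features were. Their median log2 difference was -1.24, and -1.05 by label. The contractile genes Actg2 and Cnn1 were 44.5-fold and 32.9-fold higher in tail, and Mylk, a myosin kinase gene, was lower in heart (log2 difference -4.00). Cnn1 stood at 2.25 and 2.08 on the heart pair and at 7.46 and 6.95 on the tail pair, with 4.87 on heart 2 and 1.78 on tail 1. Heart 2 lay between the pairs, and tail 1 lay below the heart pair. Myh11 (-3.50, well above background on 1 array of the heart pair) and Lmod1 (-2.71) were lower in heart, and Synpo2, an actin-bundling gene, was higher (2.42, SE 0.24, adjusted p = 0.00617). Myocd, the coactivator of the programme, was not well above background on both arrays of either tissue and was not tested.

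Genes of proteins known to bind Wt1 were compared as a list. Of 13 genes in it, which also holds the related Egr factors, 12 were tested, 0 were higher in heart and 1 was lower by limma, with 11 not passing. That 1 call stands beside 14.4% of all features called, so the list held no more calls than the background. At an unadjusted p under 0.05 there were 2 in each direction, and the median log2 difference was -0.18 (-0.50 by label). Basp1, a cosuppressor of Wt1, was the one called, lower on both arrays of the heart pair (2.82 and 2.50) than on the tail pair, where its mean was 3.79 (-1.13, SE 0.18, adjusted p = 0.0211). Its call was lost without tail 2 or tail 3 (adjusted p = 0.15 and 0.16). Wtap and Wtip, named for binding Wt1, had differences of -0.27 and 0.13, Pawr 0.47, Ciao1 -0.07 and the LIM protein gene Fhl2 0.62 (adjusted p = 0.0624). Cited2, a coactivator that acts with Wt1 in the adrenal gland, had -1.71 (adjusted p = 0.0568), and -2.24 without heart 1.

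Of 21 reported Wt1 targets 17 were tested, with 5 higher in heart and 2 lower, beside 7.75% and 6.63% of all features. The count lower in heart was thus near the background. The median log2 difference was -0.10, and -0.41 by label. Itga4, the integrin chain by which epicardial cells hold to the heart, was 3.59-fold higher, with -0.31 and -0.81 on the heart pair and -2.31 and -2.50 on the tail pair. Spry1, an inhibitor of growth factor signalling, was 12.4-fold higher and Sox9, a factor of cartilage and of epicardium-derived cells, 12.3-fold. Nes, which encodes an intermediate filament, and Bcl2, a survival factor, were 2.74-fold and 2.30-fold higher. Amhr2, a hormone receptor of mesothelium and gonad, was lower in heart (-2.52, SE 0.18), and well above background on 1 array of the heart pair. Snai1, which Wt1 is reported to switch on in the epicardium, did not pass (-0.10, adjusted p = 0.833) and was singled out after its value was seen. Without tail 2 or tail 3 fewer genes of this list were called, as fewer of all features were. Bcl2 and Nes lost their calls without tail 2 (adjusted p = 0.095 and 0.0602) or tail 3 (0.13 and 0.0929), and Itga4 without tail 3 (0.0576).

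**Figure D5:**
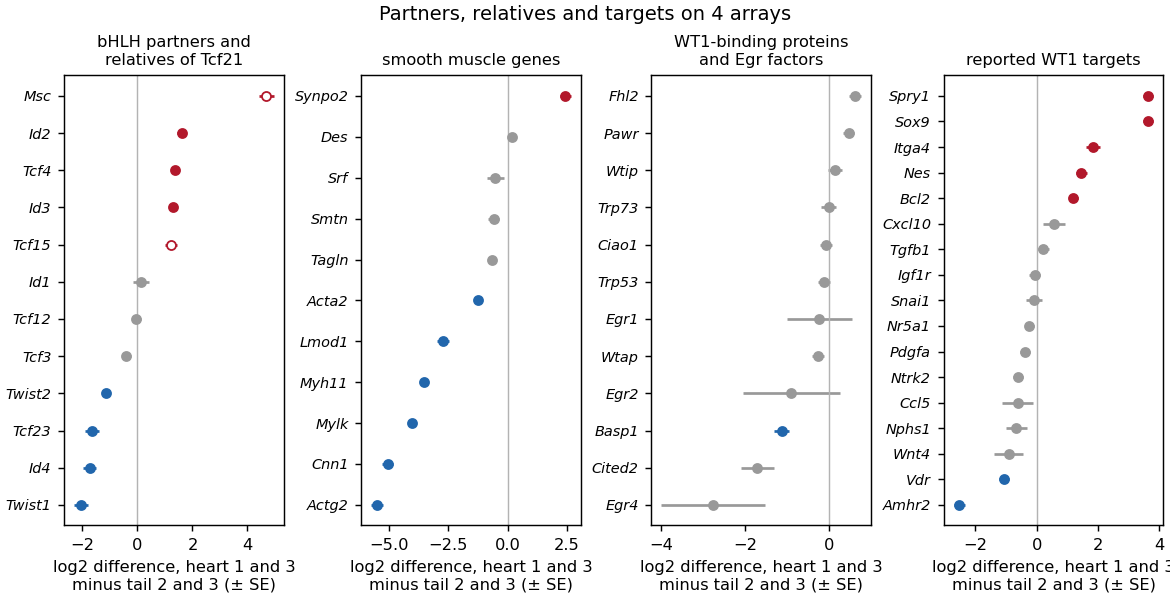
Log2 difference between the heart pair and the tail pair (± SE, n = 2 each) for bHLH partners and relatives of Tcf21, smooth muscle genes, proteins that bind Wt1 with the Egr factors, and reported Wt1 targets, coloured as passing higher in heart (red), lower (blue) or not passing (grey), with open points at background in 1 tissue. Musculin stands apart at 4.69 among the bHLH genes, 6 smooth muscle genes lie to the left, and 1 Wt1-binding gene passes.

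Of 15 transition regulators and receptors, genes of epicardial cell departure, 4 were higher in heart and 2 lower, beside 7.75% and 6.63% of all features. The count lower in heart was near the background, and the median log2 difference of the list was 0.47, or -0.55 by label. Those called included Tgfb2 (4.54-fold higher), Pdgfra (3.20-fold), the receptor of the fibroblast lineage, and Cdh2 (2.93-fold). Zeb1 was 1.69-fold higher, and Snai2 and Tgfbr3 were lower (-2.27 and -1.45). Fewer of these genes were called without tail 2 or tail 3, and calls over all features fell there too. Pdgfra lost its call without tail 3 (adjusted p = 0.0521), and Cdh2, Zeb1 and Tgfbr3 without tail 2 (0.0787, 0.327 and 0.106) or tail 3.

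Of 16 tested secreted factors and retinoid receptors 2 were higher in heart, near the 7.75% of all features, and 4 were lower, where 6.63% of all features were. The median log2 difference was 0.01, and -0.65 by label. Rarb, a retinoic acid receptor that retinoic acid itself switches on, read 1.35 and 1.80 on the heart pair against -2.65 and -2.44 on the tail pair, 17.4-fold higher. Ptn, a growth factor gene, was 13.2-fold higher. The R-spondin Rspo3 was 72.0-fold higher in tail and Fgf10, a limb and epicardial growth factor, at least 11.4-fold. Bmp4 and the receptor gene Rara were lower in heart by about 1 log2 unit (-1.08 and -1.03), and both lost their calls without tail 2 (adjusted p = 0.152 and 0.165) or tail 3.

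The neighbours of both genes were read where the array had them. Of the 3 nearest genes on each side of Tcf21 in the annotation, 0 of 6 were on the array. For Wt1 it was 3 of 6. Wt1os, the noncoding RNA next to Wt1 on the opposite strand, has 2 probes, and neither was well above background on any array other than heart 2. Them7 likewise read above background on heart 2 alone. Rcn1, a calcium-binding protein gene of the endoplasmic reticulum, was bright on all 6 arrays and did not pass (-0.48, adjusted p = 0.105).

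Markers of other cells moved beside Tcf21 and Wt1. Over all features 7.75% were called higher in heart on the 4 arrays and 6.63% lower. Of 10 endothelial markers 8 were higher in heart on the 4 arrays and 0 lower. All 10 were above background on the heart pair, and 6 on the tail pair, where Tie1, Cldn5, Robo4 and Emcn were not. Those genes, all called higher, had entered the test through the heart pair alone, so that filter largely set their direction. Their summed level, in units of each array's 75th percentile, was 18.6 to 25.4 in heart and 19.6 to 26.2 in tail. Kdr, which did not pass, was 13.6 and 18.4 of the sum on the heart pair and 24.8 and 18.3 on the tail pair. The other endothelial markers summed to 4.99 and 7.01 on the heart pair and to 1.42 and 1.30 on the tail pair. Of 9 tested leukocyte markers 7 were higher in heart and 0 lower, with a summed level of 65.7 to 112 against 30.1 to 47.0. The part of endothelial cells and leukocytes in the differences of Tcf21 and Wt1 was not tested.

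Mesothelial markers were split, and Krt19 carried their sum in tail. The 7 on the array summed to 0.687 and 0.698 on the heart pair and to 2.93 and 3.06 on the tail pair. Krt19 alone was 2.77 and 2.92 of the sum on the tail pair, and the other markers there summed to 0.163 and 0.142. Of the 4 tested, Msln was higher in heart, Krt19 was lower, and Krt18 (2.38) and Upk3b (2.05) did not pass. Their median log2 difference was 2.22, or 1.25 with genes at their bound. Well above background were 6 of them on heart 1, 3 on heart 3, 2 on tail 2 and 1 on tail 3, and Krt8 on none of these arrays. The sum was 3.43 on heart 2 and 0.698 on tail 1. Beside these calls and those of the markers below, 7.75% of all features were called higher in heart and 6.63% lower. Cardiomyocyte markers summed to 2.76 to 4.55 in heart and 1.76 to 2.71 in tail, and Tnnt2 alone was 4.24 and 2.30 of the sum on heart 1 and heart 3. Of 6 tested, Tnnt2 was higher in heart (19.1-fold), and Actc1 (at least 29.9-fold), Mb (at least 4.24-fold) and Myl2 (2.77-fold) were higher in tail. Actc1, Mb, Myl7, Pln and Ryr2 were not well above background on heart 1 or heart 3. The fibroblast markers summed to 2881 to 3649 in heart and 2652 to 2938 in tail. Of 12 tested, 5 were higher in heart, Dpt (74.8-fold), Lum (7.72-fold), Pdgfra, Dcn (3.02-fold) and Col3a1 (2.42-fold), and Thy1 was lower (-1.89). Their median log2 difference was 0.96, and -0.51 by label. Smooth muscle and pericyte markers summed to 262 to 296 against 777 to 943 (0 of 7 tested higher in heart, 5 lower), and skeletal muscle markers to 12.7 to 16.3 against 40.7 to 46.5 (3 of 3 tested lower). Of the called markers in this paragraph, Krt19, Actc1, Mb, Myh11, Myh3 and Myog had entered the test through the tail pair alone. Msln had entered it through the heart pair alone. The direction of such calls was largely set by that filter. Keratinocyte markers summed to 7.05 to 7.31 against 6.21 to 7.03, and 0 of 3 tested passed, also at an unadjusted p under 0.05. Most of each sum came from a single gene, Acta2 for smooth muscle, Acta1 for skeletal muscle and Trp63 for keratinocytes. The share of Tcf21 and Wt1 signal that came from fibroblasts was not tested.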

How the data were processed

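Per the file headers, the authors deposited spot intensities from Agilent Feature Extraction 11.0.1.1, background-subtracted and detrended within each array and not scaled across arrays. The deposited table gives each listed probe's log2 fold change beside its linear fold, by steps the sources used here do not state. Outlier spots were dropped, spots of a probe averaged in log2, and the 75th percentile of each array's non-control probes subtracted. RefSeq accessions named 27235 probes, another 16 took the deposited symbol and 28430 stayed unnamed. Testing required signal well above background on every array of 1 tissue or the other, and a gene took its brightest tested probe. Limma 3.58.1 in R 4.3.3 compared tissues with two-sided moderated tests (Benjamini-Hochberg over all features, threshold 0.05), tested on simulated data. Files were parsed in Python 3.11.15 (pandas 2.3.3) and plotted with matplotlib 3.10.9.

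Sample titles gave groups and replicate numbers. The genes, the 8 pathway lists, the 8 cell marker lists and the 4-array comparison were chosen with earlier results of these data known. Named were both genes, up to 6 called list members with the largest differences and groups that do not overlap, E proteins, Id genes, musculin, Wt1-binding proteins, 3 neighbours on each side and the 6 most alike features. Whether heart and tail cultures share animals is not stated, so p-values measure the spread between these cultures, and the number of arrays limits precision. Alternatives were other normalizations, background correction, filters, probe choices, blocks, variance models, array weights and leaving out each array. Normexp ran on median spot and background intensities. The values of 1 list member, which stays in the counts, are not reported here.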

Additional observations from a re-analysis of the deposited data

How the results depend on the processing

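By label, both genes kept their direction under the alternatives run. Their size moved: normexp gave 2.82 for Tcf21 and 0.42 for Wt1, and array weights 10.49 and 4.48 (adjusted p = 0.0607 for both). With the replicate number as a block, Tcf21 passed (log2 difference 4.64, limma adjusted p = 0.0186), Wt1 did not (2.32, adjusted p = 0.209), and 44 features were called, 35 higher and 9 lower. Same-numbered arrays deviated together at 0.19, 0.26 and -0.33, and not every array correlated best with its own number, so the numbers were not taken as pairs. Without heart 2 and tail 1 together the values were 10.87, 4.85 and 2956 features. Array weights gave 1 feature. Leaving out each array gave 2.76 to 8.30 for Tcf21, 1.29 to 4.08 for Wt1 and 0 to 217 features, the highest without heart 1. The median of all features by label was -0.40, and -1.33 with median scaling or -0.01 with loess.

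On 4 arrays Tcf21 and Wt1 passed under each alternative that could test them, with lowest differences of 7.85 and 1.84, both under normexp. Leaving out 1 array, where the lone array is assumed to vary like the others, gave 10.77 to 10.97 and 4.53 to 5.18. The authors' deposited table has 10.34 for Tcf21. A filter asking for signal on all arrays removed both genes and gave no value. No paired analysis was possible on the 4 arrays because the tissues share only 1 replicate number. Called features numbered 714 with no filter, where dim probes are added, and 1568 to 3948 when 1 array was left out (1901 without tail 2, 1568 without tail 3).

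With no filter, list members called were 7 epicardial factors (5 with a filter on all arrays), 8 epicardial and mesothelial markers and 1 bHLH gene. Also called were 4 smooth muscle genes, 0 Wt1-binding genes, 3 Wt1 targets and 1 transition gene. Calls fell over the whole array too, from 2956 of 20566 features to 714 of 37065 with no filter. With a filter on all arrays they were 2158 of 18555. Wt1-binding genes called were 2 with quantile, median or loess scaling or array weights, and 3 with normexp, the slide row or an intensity trend. Leaving out 1 array, the counts were 9 to 12 for epicardial factors, 13 to 15 for markers, 3 to 8 for bHLH genes, 6 to 9 for smooth muscle, 0 to 5 for Wt1-binding genes, 3 to 9 for targets, 2 to 7 for transition genes and 4 to 7 for signals.

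Of 66 other named genes, 37 kept direction and side of the threshold throughout, 20 lost a call somewhere, 5 gained one and 4 changed sign while not passing. These were Id1 (-0.26 to 0.53 when 1 array was left out), Snai1 (0.0011 with loess, -0.42 to 0.22 when 1 array was left out), Tcf12 (0.0028 with loess, 0.14 with the mean and 0.33 with the dimmest probe, -0.15 to 0.074 when 1 array was left out) and Wtap (0.046 with the mean and 0.36 with the dimmest probe). The cause of these changes was not tested.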
